A study of Mus musculus with 75 samples.

Results

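The livers of 5 wild-type mice fed a high-fat diet were compared with those of 5 wild-type mice fed chow, all treated with vehicle. The 10 arrays were chosen by their labelled tissue, diet, genotype and treatment, out of 75 arrays in the whole series, of which 39 were from liver. All mice were males. The wild-type mice were control littermates of CB1-/- mice on a C57BL/6 background, so they carry an intact Cnr1 gene, which encodes cannabinoid receptor CB1. From 2 months of age they ate, for 14 weeks, either chow with 13% of energy from fat (3.41 kcal per g) or a high-fat diet with 59.4% of energy from fat (5.29 kcal per g). Both groups then received vehicle, a methylcellulose solution, by oral gavage on 2 days, after a week in single cages, and were killed with CO2 on the morning of the next day. The vehicle and the handling are therefore common to both groups, and no undosed animals enter the comparison. The other liver groups, used below only to set the diet effect beside other diet effects, were CB1-/- mice on vehicle and both genotypes on AM251, a CB1 inverse agonist, at 10 mg per kg. RNA was hybridised to a custom one-colour mouse array, and each value below is a log2 intensity of 1 liver on 1 array.

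A diet rich in fat supplies the liver with fatty acids faster than they can be oxidised or exported, and the surplus is esterified to triglyceride and stored in lipid droplets inside hepatocytes. The enzymes of fatty acid and cholesterol synthesis are driven by the sterol-regulated factors SREBP1 and SREBP2, of which the latter is held back when the liver has enough cholesterol. The genes of fatty acid oxidation respond to PPARα, those of droplet storage partly to PPARγ, and a set of liver genes that differ between males and females follows the rhythm of growth hormone release.

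Each of 19147 genes was read from its brightest probe set in liver, and the log2 change, high-fat minus chow, is given with its standard error (SE) from a limma fit of all 39 liver arrays, with p values adjusted over all genes by the Benjamini-Hochberg method and a gene called at an adjusted p under 0.05. The median intensity of all 38385 probe sets ran from 26.9 to 28.7 over the 10 arrays. The arrays were alike, with a mean correlation to the other liver arrays from 0.986, for chow array 3, to 0.991. The median SD within a group was 0.15 over the high-fat arrays and 0.17 over the chow arrays, and 5 arrays a group limit the precision of every value. The labels do not say that the 5 samples of a group were separate experiments, so the p values measure the spread between samples. That spread is pooled within the 8 liver groups of the 39 arrays, so it comes in large part from groups other than those compared. Of 13 hepatocyte markers 0 were called, with a median change of 0.00 and changes between -0.31 and 0.17. Albumin (Alb) read 14.88 ± 0.05 on high-fat and 14.83 ± 0.07 on chow arrays (SD, n = 5 each). Of 12 exocrine pancreas markers, 16 lymphocyte markers, 10 cholangiocyte markers and 4 red blood cell markers, 0 were called. As 1.69% of all genes were called, 0 calls in lists this short do not show the groups to be alike. Of 7 adipocyte markers 1 was called, Fabp4, described below, while Adipoq had a change of -0.11, Lep of -0.16 and Plin1 of -0.22.

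The high-fat diet changed 323 genes, 1.69% of those tested. Of these 212 were higher on the high-fat diet (1.11%) and 111 lower (0.580%), with log2 changes from -3.01 to 4.53. The median change over all genes was -0.01, and 46.7% of all genes had a change above 0. At an unadjusted p under 0.05 the count was 2374. In 206 of the 323 genes the 5 high-fat values and the 5 chow values did not overlap, against 2.91% of all genes. The 323 were chosen by their difference on these same arrays, so a larger share follows from that choice and is no separate support. The counts depend on single livers: 170 genes, 109 higher and 61 lower, were called without high-fat array 2, and 160 genes, 98 higher and 62 lower, without chow array 3. A fit of the 10 arrays alone, which has fewer arrays to estimate each gene's spread from, called 163, of which 137 were among the 323.

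**Figure D1:**
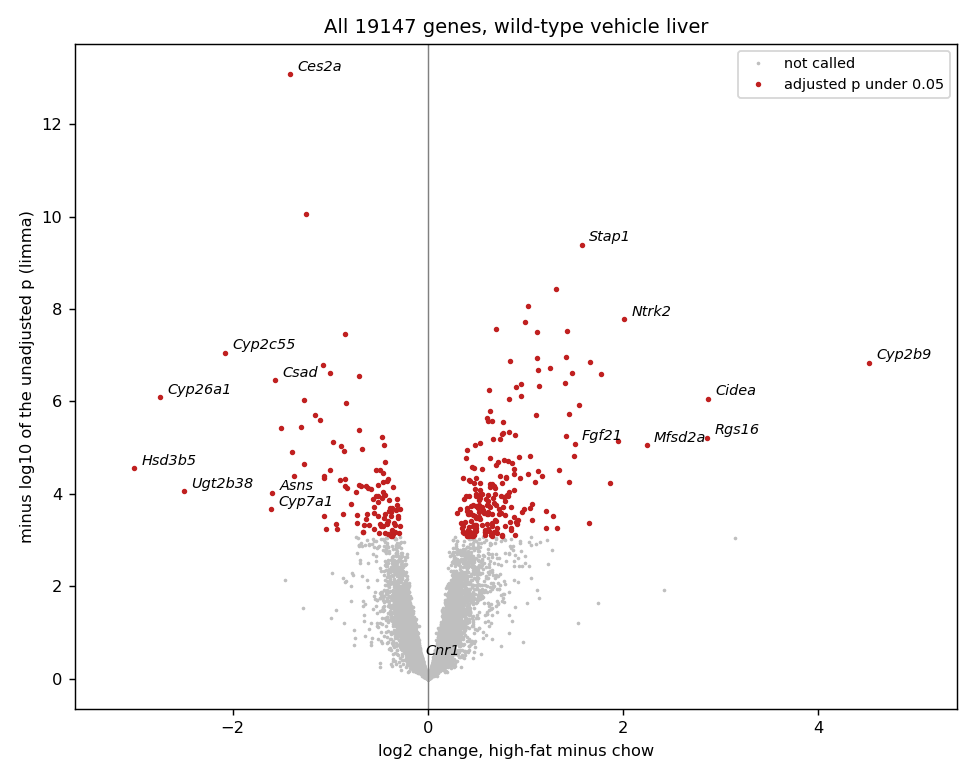
Every gene's log2 change, high-fat minus chow, against minus log10 of its unadjusted p in wild-type vehicle liver; red points are the 323 genes with an adjusted p under 0.05. Cyp2b9 lies farthest to the right at 4.53, Hsd3b5 farthest to the left at -3.01, and Ces2a highest.

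The largest rise was that of Cyp2b9 (Entrez 13094), a cytochrome P450 of steroid and drug metabolism that is normally more abundant in female than in male liver. It read 9.11, 10.56, 7.34, 7.74 and 8.81 on high-fat arrays 1 to 5 and 5.84, 3.96, 3.52, 4.16 and 3.44 on chow arrays 1 to 5. The groups did not overlap: the lowest high-fat liver, array 3, lay above the highest chow liver, array 1. The change was 4.53 ± 0.70, adjusted p = 0.000166. Whether the chow readings lie above the array's background is not known here, so no fold is given. Cidea (Entrez 12683), a protein that fuses lipid droplets and is typical of brown fat, read 8.29, 8.95, 4.87, 7.64 and 7.91 on high-fat arrays 1 to 5 and 5.67, 4.43, 4.22, 4.29 and 4.68 on chow arrays 1 to 5. High-fat array 3 stayed among the chow livers while the other 4 lay far above them, for a change of 2.87 ± 0.49, adjusted p = 0.000502. Rgs16 (Entrez 19734), which shortens signalling from G-protein-coupled receptors, read 6.46, 7.87, 7.78, 9.37 and 9.68 on high-fat arrays 1 to 5 and 5.01, 5.12, 5.41, 4.86 and 6.45 on chow arrays 1 to 5. High-fat array 1 was just above the highest chow liver, array 5, and arrays 4 and 5 were highest; the change was 2.86 ± 0.54, adjusted p = 0.00211.

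Mfsd2a (Entrez 76574), a transporter of lysophosphatidylcholine that is induced in fasting liver, read 10.71, 10.38, 10.32, 10.56 and 10.69 on high-fat arrays 1 to 5 and 9.28, 6.98, 8.36, 7.63 and 9.19 on chow arrays 1 to 5. The 5 high-fat livers were close together while the chow livers were scattered below them, and the change was 2.24 ± 0.44, adjusted p = 0.00261. Ntrk2 (Entrez 18212), the receptor TrkB for brain-derived neurotrophic factor, read 7.38, 7.76, 6.70, 6.58 and 5.46 on high-fat arrays 1 to 5 and 4.92, 4.79, 4.87, 4.35 and 4.90 on chow arrays 1 to 5. All high-fat livers were above all chow livers, with high-fat array 5 nearest, and the change was 2.01 ± 0.28, adjusted p = 5.24e-05. The 4 dimmer probe sets of Ntrk2 had changes between -0.31 and 0.65, so the rise rests on the brightest one. Fgf21, a hormone the liver secretes in fasting and under metabolic stress, read 6.57, 7.11, 6.61, 6.39 and 7.57 on high-fat arrays 1 to 5 and 5.47, 4.91, 5.40, 5.28 and 5.67 on chow arrays 1 to 5. Again the groups did not overlap, and the change was 1.51 ± 0.29, adjusted p = 0.00259. Stap1, an adaptor protein of immune-cell signalling, had the smallest p of the genes that rose, at 1.58 ± 0.19, adjusted p = 2.63e-06, with high-fat array 1 lowest at 5.84 and chow array 3 highest at 5.36.

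The other genes among the 15 largest rises, counted over called genes whose 5 high-fat values all lay on 1 side of the chow mean, came from several families. Wfdc2, a secreted protease-inhibitor family protein, changed by 1.95 ± 0.37, Ifi27l2b, of an interferon-inducible family, by 1.78 ± 0.28, and Anxa2, an annexin that binds phospholipid membranes in the presence of calcium, by 1.66 ± 0.26. Ly6d, a membrane-anchored Ly6 protein, read 5.94, 9.22, 5.56, 6.31 and 6.61 on high-fat arrays 1 to 5 and 4.76, 5.14, 4.89, 4.85 and 4.68 on chow arrays 1 to 5. High-fat array 2 stood more than 2.5 log2 units above the next liver, and the change was 1.86 ± 0.41, adjusted p = 0.00957, and 1.24 without that array. Osbpl3, an oxysterol-binding protein family member, changed by 1.65 ± 0.43, Cyp17a1, a steroid hydroxylase, by 1.55 ± 0.27, Vcam1, an adhesion molecule for leukocytes, by 1.49 ± 0.30, and Mmd2, of the progestin and adiponectin receptor family, by 1.48 ± 0.23. In each of these 15 genes but Cidea the groups did not overlap, and high-fat array 2 was the highest liver in Cyp2b9, Cidea, Ntrk2, Wfdc2, Ly6d, Ifi27l2b, Anxa2, Osbpl3, Vcam1 and Mmd2. The second probe sets of Anxa2 and Mmd2, which are much dimmer, had changes of 0.18 and 0.04. Osbpl3 lost its call without high-fat array 2, 4 or 5 or chow array 3 or 4 (adjusted p 0.0631 to 0.159). Ly6d and Osbpl3 did not pass in a fit of the 10 arrays alone (adjusted p 0.059 to 0.115). Osbpl3 lost the call with the mean of all probe sets of a gene.

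**Figure D2:**
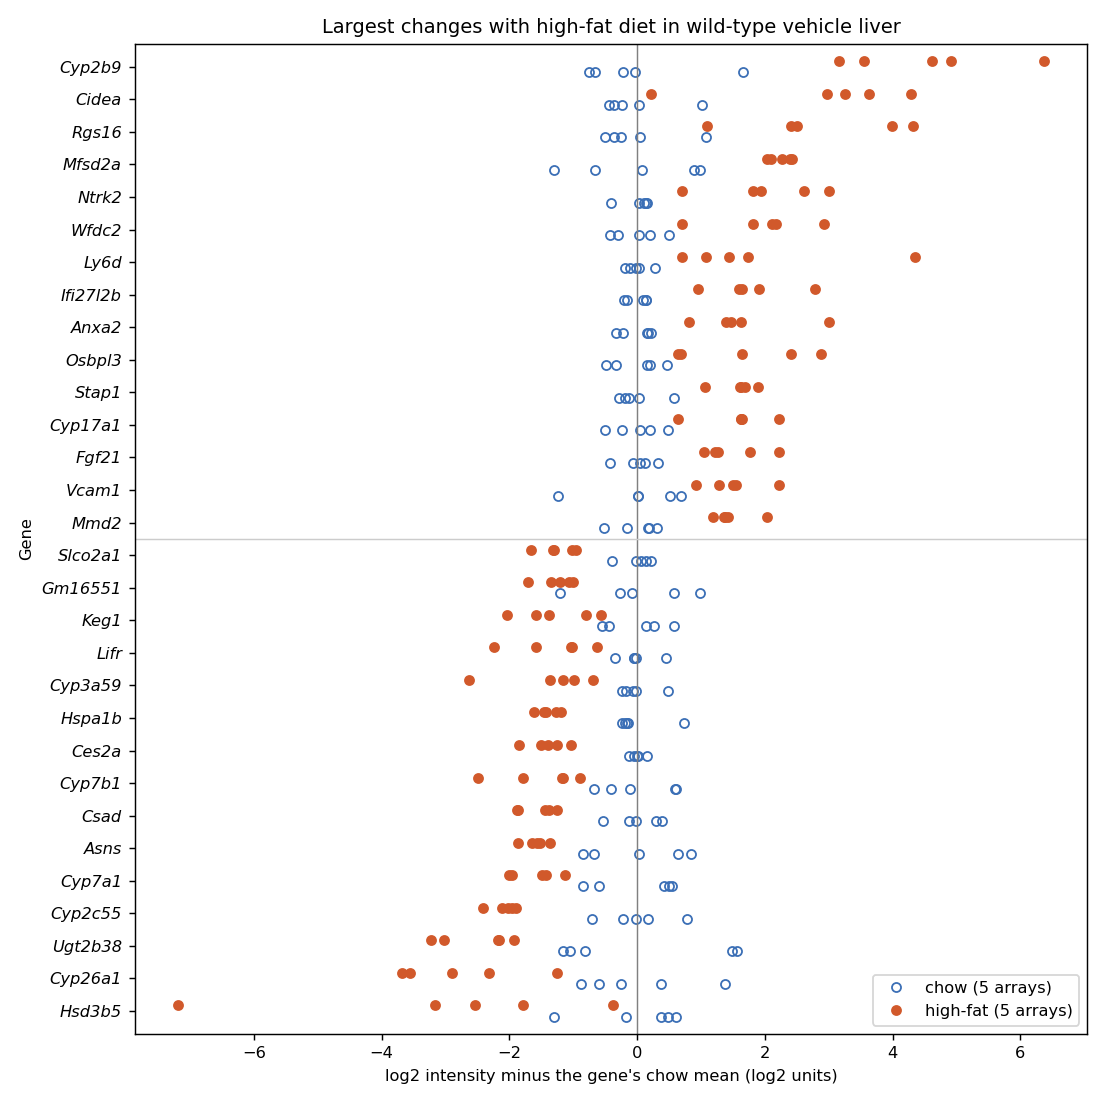
Log2 intensity of each array minus the gene's chow mean for the 15 largest rises (top) and 15 largest falls (bottom); open blue circles are the 5 chow livers and filled orange circles the 5 high-fat livers. Groups overlap in Cidea, Hsd3b5 and Gm16551 and in no other gene of the plot.

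The largest fall was that of Hsd3b5 (Entrez 15496), a steroid dehydrogenase that is normally far more abundant in male than in female liver. It read 9.07, 4.42, 11.24, 8.44 and 9.82 on high-fat arrays 1 to 5 and 10.32, 11.44, 12.10, 11.98 and 12.22 on chow arrays 1 to 5. High-fat array 2 was lowest by a wide margin, while high-fat array 3 lay within the chow range. The change was -3.01 ± 0.63, adjusted p = 0.00637, and -1.97 without high-fat array 2. Cyp26a1 (Entrez 13082), the main enzyme that inactivates retinoic acid, read 7.11, 8.76, 7.70, 6.34 and 6.46 on high-fat arrays 1 to 5 and 10.38, 11.38, 9.76, 9.13 and 9.41 on chow arrays 1 to 5. All 5 high-fat livers were below all chow livers, and the change was -2.74 ± 0.46, adjusted p = 0.000486. Ugt2b38, a glucuronosyltransferase, read 3.18, 3.39, 4.48, 4.25 and 4.23 on high-fat arrays 1 to 5 and 5.35, 5.24, 7.89, 5.59 and 7.97 on chow arrays 1 to 5. Chow arrays 3 and 5 were more than 2 log2 units above the other 3 chow livers, and the change was -2.50 ± 0.57, adjusted p = 0.0125. Cyp2c55, a cytochrome induced by xenobiotic receptors, read 6.08, 6.18, 6.30, 6.24 and 5.78 on high-fat arrays 1 to 5 and 7.97, 8.36, 7.49, 8.98 and 8.18 on chow arrays 1 to 5. The high-fat livers were tightly grouped below all chow livers, at -2.08 ± 0.31, adjusted p = 0.00014. Ugt2b38 lost its call without chow array 3 (adjusted p 0.0701). Hsd3b5 did not pass in a fit of the 10 arrays alone (adjusted p 0.169).

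Ces2a (Entrez 102022), a carboxylesterase that hydrolyses lipid and drug esters, had the smallest p of all genes. It read 10.78, 10.18, 10.999, 10.63 and 10.52 on high-fat arrays 1 to 5 and 11.98, 12.03, 11.91, 12.18 and 12.05 on chow arrays 1 to 5, and even the highest high-fat liver was 0.91 below the lowest chow liver. The change was -1.41 ± 0.12, adjusted p = 1.58e-09. Csad (Entrez 246277), an enzyme on the path from cysteine to taurine, read 10.24, 10.68, 10.26, 10.86 and 10.74 on high-fat arrays 1 to 5 and 11.58, 12.41, 12.0002, 12.10 and 12.50 on chow arrays 1 to 5. The groups were separate, at -1.56 ± 0.25, adjusted p = 0.000266. Cyp7a1, the rate-limiting enzyme of bile acid synthesis, read 7.95, 7.37, 7.89, 7.42 and 8.25 on high-fat arrays 1 to 5 and 8.78, 9.79, 8.53, 9.88 and 9.93 on chow arrays 1 to 5. Chow arrays 1 and 3 lay below the other chow livers and still above all high-fat livers, and the change was -1.60 ± 0.39, adjusted p = 0.0216. Asns, asparagine synthetase, a target of the amino acid stress response, read 5.10, 5.39, 5.44, 5.59 and 5.30 on high-fat arrays 1 to 5 and 7.00, 7.81, 6.28, 6.12 and 7.59 on chow arrays 1 to 5. Chow livers were spread over 1.69 log2 units, all above the high-fat livers, at -1.59 ± 0.37, adjusted p = 0.0134. Cyp7a1 lost its call without high-fat array 2 or 4 or chow array 2, 4 or 5 (adjusted p 0.0542 to 0.0743) and Asns without chow array 2 (adjusted p 0.0537).

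Among the remaining large falls, Cyp7b1, an oxysterol hydroxylase, changed by -1.50 ± 0.28, Hspa1b, an inducible heat shock protein, by -1.39 ± 0.28, Cyp3a59, a drug-metabolising cytochrome, by -1.37 ± 0.29, Lifr, the receptor of leukaemia inhibitory factor, by -1.30 ± 0.24, Keg1, a glycine acyltransferase family member, by -1.27 ± 0.22, the uncharacterised gene Gm16551 by -1.27 ± 0.26, and Slco2a1, a prostaglandin transporter, by -1.25 ± 0.14. For Hspa1b the high-fat livers were within 0.42 log2 units of each other, and chow array 3 was the highest liver. The 2 dimmer probe sets of Lifr also had negative changes, -0.54 and -0.76. Gm16551 did not pass in a fit of the 10 arrays alone (adjusted p 0.0804). Probe sets of near-identical family members, as in the Cyp2b, Cyp2c, Cyp3a, Ugt2b, Hspa1 and Ifi27l2 families, can share signal, so the change of one of them is uncertain as to which member moved.

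Several proteins that build and coat lipid droplets had more message in the high-fat livers. Of 25 measured genes of triglyceride assembly and droplets 5 rose and 0 fell, with a median change of 0.47. That is 20% called, against 1.69% of all genes, a share to be set beside each list below as well. No list was tested as a set, so a single call in a short list is not a result about the list. Besides Cidea the genes that rose were the droplet coat protein Plin4, the acyltransferases Mogat1 and Gpat3, and Hsd17b13, a droplet-bound dehydrogenase. Plin4 read 8.17, 8.70, 5.98, 8.02 and 8.02 on high-fat arrays 1 to 5 and 6.91, 6.23, 6.77, 5.92 and 6.44 on chow arrays 1 to 5. High-fat array 3 lay at the bottom with the chow livers, the other 4 above all of them, for a change of 1.33 ± 0.35, adjusted p = 0.0386. Mogat1 read 7.34, 7.35, 5.34, 6.96 and 7.20 on high-fat arrays 1 to 5 and 5.64, 5.66, 5.80, 5.40 and 5.29 on chow arrays 1 to 5. It showed the same picture, with high-fat array 3 inside the chow range and the other 4 more than 1 log2 unit above it, at 1.28 ± 0.32, adjusted p = 0.0258. Hsd17b13 rose by 0.64 ± 0.14, adjusted p = 0.0106, with no overlap, and Gpat3 by 1.06 ± 0.27, adjusted p = 0.0302. Cidec, another droplet fusion protein, had a change of 1.12 ± 0.42, adjusted p = 0.213, and the coat protein Plin2, a common measure of fat storage, one of 0.47 ± 0.13, adjusted p = 0.0529; neither passed with all arrays. Cidec passed without high-fat array 3 and Plin2 without high-fat array 1 or 3. Plin2 also passed with array weights, with an intensity trend, among the genes above the median level and without chow knockout arrays 15 and 17. Lpin1 had a change of 1.14 and Gpam of 1.06 without passing, and the lipase inhibitor G0s2 had -0.58. The mean of the 25 genes, relative to their chow means, was 0.52, 0.74, 0.08, 0.58 and 0.77 on high-fat arrays 1 to 5 and 0.08, 0.12, -0.01, -0.23 and 0.05 on chow arrays 1 to 5; high-fat array 3 lay within the chow range and the other 4 above it. The mean of the 7 adipocyte markers was -0.13 to 0.18 on the high-fat arrays and -0.05 to 0.07 on the chow arrays, and its part in these changes was not tested. Plin4 lost its call in all leave-one-out fits but those without high-fat array 3 or chow array 1 (adjusted p 0.0568 to 0.169), Mogat1 in all leave-one-out fits but those without high-fat array 3 or chow array 1, 2 or 3 (adjusted p 0.0547 to 0.106) and Gpat3 in all leave-one-out fits but those without high-fat array 3 or chow array 1 or 2 (adjusted p 0.0574 to 0.12). Hsd17b13 lost its call without high-fat array 2 or chow array 3 (adjusted p 0.0613 to 0.0695). Plin4, Mogat1 and Hsd17b13 did not pass in a fit of the 10 arrays alone (adjusted p 0.0714 to 0.148). Gpat3 lost the call with 16 added to each intensity.

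Genes of fatty acid entry and binding moved unevenly. Of 16 measured genes 3 rose and 1 fell, with a median change of 0.16, or 0.06 without high-fat array 5. Cd36, a scavenger receptor that carries long-chain fatty acids into cells, read 9.77, 10.19, 9.09, 9.61 and 9.65 on high-fat arrays 1 to 5 and 9.28, 8.21, 7.28, 8.58 and 7.74 on chow arrays 1 to 5. Chow array 1 was within the high-fat range, the other chow livers below it, and the change was 1.44 ± 0.32, adjusted p = 0.00957; the second probe set had 1.15. Fabp2, the intestinal-type fatty acid binding protein, read 11.49, 11.40, 11.41, 11.64 and 11.99 on high-fat arrays 1 to 5 and 10.81, 10.48, 10.35, 10.57 and 10.59 on chow arrays 1 to 5. Here the livers of each group were close together and far apart from the other group, at 1.03 ± 0.14, adjusted p = 3.35e-05. Fabp4, a binding protein of fat cells and macrophages, rose by 0.92 ± 0.24, adjusted p = 0.0341, with high-fat array 2 at 8.27 and the other high-fat livers between 7.34 and 7.51. Cav1, the coat protein of caveolae, fell by 0.51 (adjusted p = 0.0169). Pparg itself read 7.75 ± 0.28 on high-fat and 7.25 ± 0.39 on chow arrays, a change of 0.49 ± 0.17, adjusted p = 0.153, and lipoprotein lipase (Lpl) had -0.47. Pparg passed without chow array 5. Cd36 lost its call without chow array 3 (adjusted p 0.0589), Fabp4 without high-fat array 2 or 4 or chow array 1, 3 or 4 (adjusted p 0.0596 to 0.163) and Cav1 without high-fat array 4 or 5 or chow array 3 (adjusted p 0.0608 to 0.069). Fabp4 and Cav1 did not pass in a fit of the 10 arrays alone (adjusted p 0.0567 to 0.0871).

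The genes called in fatty acid synthesis rose, and those called in cholesterol synthesis fell. Of 19 measured fatty acid synthesis genes 3 rose and 0 fell, with a median of 0.51. Acaca, acetyl-CoA carboxylase, which makes the malonyl-CoA for chain growth, read 8.94, 10.55, 10.36, 10.18 and 9.98 on high-fat arrays 1 to 5 and 8.64, 9.17, 9.30, 9.02 and 9.46 on chow arrays 1 to 5. High-fat array 1 lay within the chow range and the other 4 above it, at 0.89 ± 0.20, adjusted p = 0.0119, while its much dimmer second probe set had -0.06. Fads1, a desaturase of polyunsaturated fatty acids, rose by 0.47 ± 0.13, adjusted p = 0.0473, and Pnpla3, a droplet lipase family protein induced by refeeding, by 0.89 ± 0.24, adjusted p = 0.0473, but by 0.57 without high-fat array 3. Fasn, fatty acid synthase, read 8.01, 10.08, 10.52, 10.03 and 9.17 on high-fat arrays 1 to 5 and 7.14, 8.58, 8.90, 8.37 and 8.71 on chow arrays 1 to 5. High-fat array 1 was low, within the chow livers, and array 3 was highest; the change, 1.22 ± 0.34, adjusted p = 0.0538, missed the threshold. Acly, which supplies cytosolic acetyl-CoA, had 1.06 ± 0.30, adjusted p = 0.0625, and Scd1, the desaturase that makes monounsaturated fatty acids, had -0.01 ± 0.25, adjusted p = 0.991. Mlxipl, which encodes the carbohydrate-responsive factor ChREBP, leaned the other way, at -0.45 ± 0.13, adjusted p = 0.0626, and did not pass. Of the 19 genes 14 had a change above 0. The mean over the 19 genes was -0.34, 0.63, 0.90, 0.57 and 0.34 on high-fat arrays 1 to 5 and -0.30, 0.13, -0.06, 0.09 and 0.14 on chow arrays 1 to 5. High-fat array 1 was thus below the lowest chow liver while the other 4 were above the highest. Acaca lost its call without high-fat array 2 (adjusted p 0.0676), Fads1 in all leave-one-out fits but those without high-fat array 1 or chow array 5 (adjusted p 0.0604 to 0.173) and Pnpla3 in all leave-one-out fits but those without high-fat array 1 or 5 (adjusted p 0.0546 to 0.191). Without high-fat array 1 the changes of Fasn and Acly passed, that of Fasn also without chow array 5, and so they did among the genes above the median level and with array weights. Acaca, Fads1 and Pnpla3 did not pass in a fit of the 10 arrays alone (adjusted p 0.131 to 0.328). Acaca and Fads1 lost the call with the mean of all probe sets of a gene and Fads1 after quantile normalization.

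Of 19 measured genes of cholesterol synthesis and other SREBP2 targets 3 fell and 0 rose, for a median of -0.33, and 18 of the 19 had a change below 0. Idi1, the isomerase of the isoprenoid units, read 8.57, 8.32, 9.64, 9.32 and 9.12 on high-fat arrays 1 to 5 and 9.69, 9.93, 9.87, 9.95 and 9.88 on chow arrays 1 to 5. All high-fat livers were below all chow livers, arrays 1 and 2 by more than 1 log2 unit and array 3 hardly at all. The change was -0.87 ± 0.22, adjusted p = 0.0244. Tm7sf2, a sterol reductase, fell by 0.64 ± 0.16 (adjusted p = 0.0282), and Ebp, a sterol isomerase, fell by 0.31 ± 0.07 (adjusted p = 0.0155). Hmgcs1, which starts the pathway, had -0.31 ± 0.14, adjusted p = 0.365, squalene epoxidase (Sqle) -0.42 ± 0.30, adjusted p = 0.631, and Cyp51 -0.62 without passing. The list mean was -0.75, -0.75, 0.05, -0.13 and -0.20 on high-fat arrays 1 to 5 and -0.20, 0.09, -0.08, 0.10 and 0.09 on chow arrays 1 to 5. High-fat arrays 1 and 2 lay far below all other livers, and the rest of the high-fat livers at or within the chow range. The list median was -0.22 without high-fat array 1. Idi1 lost its call without high-fat array 1 or 2 or chow array 2, 3 or 4 (adjusted p 0.0519 to 0.133), Tm7sf2 without high-fat array 1 or 2 or chow array 2, 4 or 5 (adjusted p 0.0632 to 0.159) and Ebp without high-fat array 2 or chow array 4 (adjusted p 0.0743 to 0.0814). Idi1, Tm7sf2 and Ebp did not pass in a fit of the 10 arrays alone (adjusted p 0.0625 to 0.177).

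The promoters of the 3 genes that fell are shown because SREBP2 acts on such genes together with the factor NF-Y, which binds the letters CCAAT. Each line gives the 250 bases before the start site from RefSeq (build GRCm38.p6), read 5′ to 3′ on the gene's strand, with CCAAT, or ATTGG where it lies on the other strand, in capitals. Idi1 lies at chr13:8885356-8885605, plus strand, Tm7sf2 at chr19:6067851-6068100, minus strand and Ebp at chrX:8193513-8193762, minus strand.
Idi1 promoter: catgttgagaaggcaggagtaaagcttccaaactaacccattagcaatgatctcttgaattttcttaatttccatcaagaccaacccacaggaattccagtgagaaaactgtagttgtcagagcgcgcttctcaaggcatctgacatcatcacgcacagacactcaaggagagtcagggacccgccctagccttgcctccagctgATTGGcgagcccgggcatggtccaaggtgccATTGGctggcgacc
Tm7sf2 promoter: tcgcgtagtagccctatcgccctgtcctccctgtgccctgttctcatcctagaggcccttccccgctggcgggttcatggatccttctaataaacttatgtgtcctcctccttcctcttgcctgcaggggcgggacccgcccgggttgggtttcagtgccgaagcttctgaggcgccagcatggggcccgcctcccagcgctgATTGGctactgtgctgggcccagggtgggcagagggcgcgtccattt
Ebp promoter: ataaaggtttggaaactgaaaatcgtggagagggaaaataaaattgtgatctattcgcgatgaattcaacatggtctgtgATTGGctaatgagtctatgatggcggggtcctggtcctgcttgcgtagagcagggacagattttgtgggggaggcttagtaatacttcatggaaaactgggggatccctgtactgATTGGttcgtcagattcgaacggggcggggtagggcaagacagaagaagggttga
The matches begin 45 and 14 bases before the start site in Idi1, 47 in Tm7sf2, and 170 and 55 in Ebp. Of the 19 measured genes of the list 16 had a promoter in the table, and 16 of 16 (100%) held CCAAT on either strand in these 250 bases, against 38.7% of 15275 tested genes with a promoter and 37.5% of 27025 genes in the table. The sterol element TCACNCCAC was found in 1 of the 16, Hmgcs1 (6.25%), against 1.24% of the tested genes. Where a gene has several promoters in the table it was counted once if any held the motif. In fatty acid synthesis 11 of 16 genes held CCAAT (68.8%), 1 the sterol element (6.25%) and 3 the E-box CACGTG (18.8%). A match describes the letters of the window and is not a bound site.

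Some oxidation genes passed, each of them higher on the high-fat diet. Of 20 mitochondrial beta-oxidation and ketogenesis genes 2 rose and 0 fell (10%, against 1.69% of all genes called). Their median was 0.12, or 0.19 without high-fat array 3, and 16 of the 20 had a change above 0. An unadjusted p under 0.05 was reached by 10 of the 20, against 2374 of all 19147 genes. Cpt1a, the gate for fatty acid entry into mitochondria, read 12.003, 11.89, 11.92, 12.09 and 12.57 on high-fat arrays 1 to 5 and 11.68, 11.58, 11.48, 11.43 and 11.93 on chow arrays 1 to 5. High-fat array 5 was highest, and the change was 0.47 ± 0.12, adjusted p = 0.0341. Bdh1, which makes the ketone body beta-hydroxybutyrate, rose by 0.53 ± 0.12, adjusted p = 0.0118 with no overlap, and its second probe set had 0.52. Hadha, of the mitochondrial trifunctional protein, had 0.13 ± 0.09, adjusted p = 0.597. Of 20 peroxisomal and omega oxidation genes and thioesterases, typical PPARα targets, 1 rose and 0 fell: Vnn1, a pantetheinase, by 1.21 ± 0.32, adjusted p = 0.0386. Cyp4a14, usually among the most responsive PPARα targets, read 10.58 ± 0.82 on high-fat and 10.40 ± 0.52 on chow arrays, a change of 0.18 ± 0.45, adjusted p = 0.928, and Acot1 had -0.79 ± 0.33, adjusted p = 0.268. Subunits of oxidative phosphorylation had 0 of 20 genes called and changes between -0.15 and 0.19. Of the oxidation lists' genes the motif AGGNCAAAG, part of the element PPARα binds, lay in the 250 bases before the start site of Etfa alone, 1 of 16 mitochondrial genes (6.25%) and 0 of 16 peroxisomal ones, against 2% of tested genes; it was in 2 of 11 uptake genes, Fabp1 and Slc27a2 (18.2%), and in 0 of 21 droplet genes. Cpt1a lost its call without high-fat array 4 or 5 or chow array 2, 3 or 4 (adjusted p 0.0631 to 0.14) and Vnn1 in all leave-one-out fits but those without high-fat array 3 or chow array 1 (adjusted p 0.067 to 0.11). Cpt1a did not pass in a fit of the 10 arrays alone (adjusted p 0.135). Vnn1 lost the call with 16 added to each intensity and Cpt1a after quantile normalization.

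Genes of sugar handling rose as far as they were called. Of 16 measured genes of glucose sensing, glycolysis, gluconeogenesis and the pentose phosphate path 5 rose and 0 fell, with a median of 0.26. Khk, ketohexokinase, which commits fructose to metabolism, read 12.08, 12.76, 12.67, 12.64 and 12.64 on high-fat arrays 1 to 5 and 11.76, 11.84, 12.09, 11.84 and 11.96 on chow arrays 1 to 5. High-fat array 1 was the low liver of its group and the other 4 lay above all chow livers, at 0.66 ± 0.12, adjusted p = 0.00115. Pcx, pyruvate carboxylase, which opens gluconeogenesis and refills the citric acid cycle, rose by 0.56 ± 0.12, adjusted p = 0.0064. Slc2a2, the glucose transporter GLUT2, rose by 0.64 ± 0.15, adjusted p = 0.0199, Gckr, the inhibitor of glucokinase, by 0.36 ± 0.08, adjusted p = 0.00847, and Ldha, lactate dehydrogenase, by 0.37 ± 0.10, adjusted p = 0.0435; in these 3 the groups did not overlap. Pck1 and G6pc, the gluconeogenic enzymes most tightly controlled by insulin, had 0.31 ± 0.20, adjusted p = 0.558 and 0.14 ± 0.24, adjusted p = 0.887. Glycogen genes had 4 of 11 higher and 0 lower: the synthase Gys2 (0.61 ± 0.15), the branching enzyme Gbe1 (0.62 ± 0.11), the primer glycogenin Gyg (0.42 ± 0.10) and the phosphorylase Pygl (0.49 ± 0.11), so enzymes of synthesis and of breakdown both rose. Gbe1 read 11.82, 12.26, 12.16, 12.11 and 12.03 on high-fat arrays 1 to 5 and 11.51, 11.50, 10.995, 11.60 and 11.67 on chow arrays 1 to 5, with no overlap. Slc2a2 lost its call without high-fat array 3 or chow array 3 (adjusted p 0.0568 to 0.118) and Ldha in all leave-one-out fits but those without high-fat array 3 or chow array 1 (adjusted p 0.0573 to 0.129). Gys2 lost its call in all leave-one-out fits but those without high-fat array 1 or 2 or chow array 3 or 5 (adjusted p 0.0505 to 0.0702), Pygl without chow array 3 (adjusted p 0.068) and Gyg without high-fat array 2 or 5 or chow array 1 or 3 (adjusted p 0.06 to 0.121). Pcx, Gckr, Ldha, Pygl and Gyg did not pass in a fit of the 10 arrays alone (adjusted p 0.0524 to 0.0838). Ldha and Gyg lost the call with the mean of all probe sets of a gene.

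The E-box CACGTG, a palindrome that the carbohydrate-responsive factor ChREBP and other helix-loop-helix factors bind, lay in the 250 bases before the start site of 5 of 16 genes of the sugar list (31.2%), Pcx, Pfkfb3, Khk, Ldha and Pdk2, against 8.1% of the tested genes. The 3 of them that rose are shown, in the same orientation and source, with CACGTG in capitals. Khk lies at chr5:30921309-30921558, plus strand, Pcx at chr19:4510222-4510471, plus strand and Ldha at chr7:46845554-46845803, plus strand.
Khk promoter: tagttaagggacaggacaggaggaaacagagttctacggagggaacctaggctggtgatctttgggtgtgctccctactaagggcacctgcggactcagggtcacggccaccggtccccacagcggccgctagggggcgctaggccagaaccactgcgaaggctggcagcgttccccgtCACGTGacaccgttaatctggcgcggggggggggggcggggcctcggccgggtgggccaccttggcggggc
Pcx promoter: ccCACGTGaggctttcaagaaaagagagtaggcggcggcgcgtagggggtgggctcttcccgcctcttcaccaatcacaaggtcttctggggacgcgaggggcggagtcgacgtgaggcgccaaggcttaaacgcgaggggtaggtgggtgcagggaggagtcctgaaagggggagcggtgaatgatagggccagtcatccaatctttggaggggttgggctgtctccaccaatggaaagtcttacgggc
Ldha promoter: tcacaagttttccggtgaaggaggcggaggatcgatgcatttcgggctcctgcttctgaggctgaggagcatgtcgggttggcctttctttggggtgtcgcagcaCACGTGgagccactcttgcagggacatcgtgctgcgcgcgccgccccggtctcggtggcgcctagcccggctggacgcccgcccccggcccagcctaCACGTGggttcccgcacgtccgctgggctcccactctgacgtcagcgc
The matches begin 71 bases before the start site in Khk, 248 in Pcx, and 145 and 48 in Ldha. For Pcx and Ldha the table holds 2 start sites, and the first that holds the motif is printed. The other 2 holders, Pfkfb3 and Pdk2, were not called.

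Insulin and growth hormone signalling had 0 genes higher and 2 lower of 21. Igfbp2, an insulin-like growth factor binding protein, read 11.42, 10.14, 11.97, 11.26 and 11.09 on high-fat arrays 1 to 5 and 11.98, 12.66, 12.20, 12.26 and 12.09 on chow arrays 1 to 5. High-fat array 2 was lowest, and array 3 just below the chow livers, at -1.06 ± 0.23, adjusted p = 0.0081. Egfr, the receptor of epidermal growth factor, whose level in liver follows growth hormone, read 11.55, 10.33, 11.61, 10.87 and 11.40 on high-fat arrays 1 to 5 and 11.45, 11.94, 12.30, 11.95 and 12.43 on chow arrays 1 to 5. High-fat arrays 1 and 3 and chow array 1 overlapped, high-fat array 2 was lowest, and the change was -0.86 ± 0.17, adjusted p = 0.00336, with -0.92 and -1.16 on its other probe sets. Insr, the insulin receptor, had -0.13 ± 0.13, Irs2 -0.17 ± 0.17, Igfbp1 0.83 ± 0.50 and Socs2, a feedback inhibitor of growth hormone signalling, -0.49 ± 0.67, with 0 of these 4 called. Igfbp2 lost its call without high-fat array 2 (adjusted p 0.0524). Igfbp2 and Egfr did not pass in a fit of the 10 arrays alone (adjusted p 0.0727 to 0.12). Egfr lost the call with the mean of all probe sets of a gene.

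Several male-biased genes fell, while the called female-biased genes moved both ways. Of 10 measured male-biased genes 0 rose and 4 fell, Hsd3b5, Ugt2b38, Cyp7b1 and Susd4, with a median of -0.94, and 9 of the 10 had a change below 0. Slco1a1, a male-biased organic anion transporter, read 8.19, 4.50, 10.13, 8.56 and 9.52 on high-fat arrays 1 to 5 and 9.25, 9.07, 9.95, 9.77 and 10.18 on chow arrays 1 to 5. High-fat array 2 was lowest and high-fat array 3 was as high as the chow livers, and the change, -1.47 ± 0.52, adjusted p = 0.164, did not pass; it was -0.54 without array 2 and passed without array 3. Elovl3, a fatty acid elongase, had -0.85 ± 0.30, adjusted p = 0.171. Of 10 female-biased genes 2 rose, Cyp2b9 and Cyp17a1, and 1 fell, Cyp3a44, at -0.83 ± 0.14, adjusted p = 0.000576. The Cyp3a44 means were low, 3.28 on high-fat and 4.12 on chow arrays, where the median gene level was 5.46. Whether they lie above the array's background is not known here. The list median was 0.00. Over the members above the median level of all genes it was 1.55, which is the change of Cyp17a1 itself and does not describe the list. Cyp2b13 and Cyp3a16, close relatives that are also higher in female liver, had 0.27 ± 0.13 and -0.04 ± 0.08, and Sult2a1 and A1bg -0.03 and 0.17, without a call. The male-biased list's median was -0.61 without high-fat array 2. Susd4 lost its call in all leave-one-out fits but those without high-fat array 1 or 5 or chow array 1 (adjusted p 0.0522 to 0.185). Susd4 lost the call with 16 added to each intensity.

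Several drug-metabolising cytochromes fell. Of 20 measured genes of the cytochromes and their receptors 0 rose and 7 fell, with a median of -0.19. That is 35% called, against 1.69% of all genes. The 7 were Cyp2c55, Cyp1a2, Cyp2c29, Cyp2c50, Cyp2c70, Cyp2f2 and Cyp3a25. Cyp1a2, which metabolises caffeine and aromatic amines, read 11.95, 10.94, 12.14, 11.34 and 11.17 on high-fat arrays 1 to 5 and 12.35, 12.54, 12.62, 12.77 and 12.62 on chow arrays 1 to 5. All high-fat livers were below all chow livers, arrays 2, 4 and 5 by more than 1 log2 unit, at -1.07 ± 0.17, adjusted p = 0.000169. Cyp2c29 read 13.04, 12.44, 12.69, 12.63 and 12.36 on high-fat arrays 1 to 5 and 13.68, 13.53, 13.28, 13.58 and 13.34 on chow arrays 1 to 5. The groups did not overlap here either, at -0.85 ± 0.12, adjusted p = 5.9e-05. Cyp2c70, which hydroxylates bile acids to muricholic acids in mice, changed by -1.01 ± 0.21, adjusted p = 0.00652, and Cyp2f2 by -0.46 ± 0.10, adjusted p = 0.00714. Cyp2b10, the usual reporter of the receptor CAR, had -1.28 ± 0.56, adjusted p = 0.318, and Cyp3a11, that of the receptor PXR, -0.45 ± 0.15, adjusted p = 0.126; neither passed. The list mean was -0.31, -0.58, -0.48, -0.48 and -0.46 on high-fat arrays 1 to 5 and 0.15, 0.05, -0.13, 0.09 and -0.16 on chow arrays 1 to 5, so that each of the 5 high-fat livers lay below each of the 5 chow livers. Cyp7b1, Cyp3a59 and Cyp26a1 above fell as well, while Cyp2b9 and Cyp17a1 rose. Cyp3a25 lost its call without high-fat array 2 or 3 or chow array 1 or 3 (adjusted p 0.0503 to 0.0621) and Cyp2c50 without high-fat array 2 or 5 or chow array 1, 2 or 4 (adjusted p 0.0554 to 0.145). Cyp3a25 and Cyp2c50 did not pass in a fit of the 10 arrays alone (adjusted p 0.0524 to 0.0675).

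In related families of detoxification the picture was mixed. Of 27 glutathione transferases and oxidative stress genes 2 rose and 2 fell. Gsta4, which conjugates the lipid peroxidation product hydroxynonenal, read 10.36, 10.47, 10.01, 9.99 and 9.43 on high-fat arrays 1 to 5 and 10.98, 10.96, 10.81, 11.002 and 10.67 on chow arrays 1 to 5, with high-fat array 5 lowest, and changed by -0.83 ± 0.19, adjusted p = 0.0111. Gstm4 fell by 0.51 (adjusted p = 0.0141). Srxn1, which repairs overoxidised peroxiredoxins, rose by 0.70 ± 0.17, adjusted p = 0.019 and Gstk1, a mitochondrial and peroxisomal transferase, by 0.40 ± 0.11, adjusted p = 0.0435. Of 9 carboxylesterases Ces2a fell and 0 rose, and the other 8 had changes between -0.30 and 0.17. Gsta4 lost its call without high-fat array 5 (adjusted p 0.0568), Gstm4 without high-fat array 1 (adjusted p 0.057) and Srxn1 without high-fat array 2 or chow array 3 or 4 (adjusted p 0.0535 to 0.113). Gstk1 lost its call in all leave-one-out fits but those without high-fat array 4 or chow array 1 (adjusted p 0.0676 to 0.18). Srxn1 and Gstk1 did not pass in a fit of the 10 arrays alone (adjusted p 0.104 to 0.128).

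Bile acid synthesis genes had 0 of 23 higher and 2 lower, Cyp7a1 and Cyp27a1, which starts the alternative route, at -0.31 ± 0.08, adjusted p = 0.0279. Cyp8b1, which sets the share of cholic acid, had -0.19 ± 0.15, adjusted p = 0.664, the bile salt export pump Abcb11 -0.40 ± 0.14, adjusted p = 0.142 and Nr0b2, the repressor SHP, -0.27 ± 0.31, adjusted p = 0.818. Lipoprotein and sterol efflux genes had 3 of 22 higher and 0 lower. Apoc2, the activator of lipoprotein lipase, read 12.21, 12.71, 12.07, 12.46 and 12.62 on high-fat arrays 1 to 5 and 11.79, 11.79, 12.04, 11.60 and 11.64 on chow arrays 1 to 5. The groups did not overlap, although chow array 3 came within 0.03 of the lowest high-fat liver, and the change was 0.64 ± 0.13, adjusted p = 0.00423. Abcg5, which pumps sterols into bile, rose by 0.62 ± 0.15, adjusted p = 0.0168 and Abcg1, which moves cholesterol to lipoproteins, by 0.56 ± 0.15, adjusted p = 0.0341. Apob, Mttp and Abca1 had 0.25, 0.24 and -0.03. Retinoid metabolism genes had 2 of 17 higher and 1 lower: Cyp26a1 fell, while Rdh9, a retinol dehydrogenase family member, rose by 1.12 ± 0.16, adjusted p = 5.9e-05, with Pnpla3 as the other. Cyp27a1 lost its call in all leave-one-out fits but those without high-fat array 3 or chow array 1, 3 or 5 (adjusted p 0.0525 to 0.122), Abcg5 without high-fat array 1 or 3 or chow array 2 or 3 (adjusted p 0.0508 to 0.0732) and Abcg1 without high-fat array 1, 2 or 3 or chow array 1 or 3 (adjusted p 0.0597 to 0.169). Cyp27a1, Abcg5 and Abcg1 did not pass in a fit of the 10 arrays alone (adjusted p 0.0603 to 0.195). Abcg1 also lost its call with the mean of all its probe sets and with array weights.

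Amino acid catabolism and the urea cycle had 0 of 27 genes called, 5 of them with an unadjusted p under 0.05, and changes between -0.42 and 0.38. The urea cycle enzymes Ass1, Arg1 and Otc had -0.12 ± 0.09, -0.05 ± 0.07 and -0.14 ± 0.09. Of 17 genes of serine synthesis and the amino acid stress response Asns was the one called. Psat1, Phgdh and Psph, the serine synthesis enzymes, had 0.33 ± 0.14, 0.00 ± 0.08 and 0.37 ± 0.10. Among 22 chaperones and unfolded protein response genes 1 rose, the stress factor Atf3, by 0.56 ± 0.14, adjusted p = 0.0218, and 0 fell: the chaperones Hspa5 and Hsp90b1 had -0.17 ± 0.19 and -0.20 ± 0.15. Psph passed without high-fat array 5 or chow array 5. Atf3 lost its call without high-fat array 2 or 3 or chow array 4 (adjusted p 0.0524 to 0.109).

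Secreted regulators moved in both directions, with 3 of 19 hepatokines and related genes higher and 3 lower. Besides Fgf21, Il1rn, the interleukin-1 receptor antagonist, read 5.90, 6.75, 5.59, 5.49 and 5.65 on high-fat arrays 1 to 5 and 4.95, 4.95, 4.86, 5.07 and 5.10 on chow arrays 1 to 5. All high-fat livers were above all chow livers, array 2 most, at 0.89 ± 0.19, adjusted p = 0.00766. Lect2, a hepatokine, rose by 0.62 ± 0.14, adjusted p = 0.0137. Fetub, fetuin-B, fell by 0.44 (adjusted p = 0.005), and Hamp, hepcidin, which limits iron entry, fell by 0.51 (adjusted p = 0.0258), with high-fat array 1 at 14.13 inside the chow range of 13.68 to 14.16. Egfr, also on this list, is described above. Follistatin (Fst) had 0.83 ± 0.40, adjusted p = 0.371. Lect2 lost its call without high-fat array 1 or chow array 3 (adjusted p 0.0556 to 0.0783) and Hamp in all leave-one-out fits but those without high-fat array 1 or chow array 5 (adjusted p 0.0503 to 0.109). Lect2 and Hamp did not pass in a fit of the 10 arrays alone (adjusted p 0.0777 to 0.202).

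Acute phase genes differed widely between livers of one group. Of 21 measured genes 0 rose and 1 fell, Hamp, with a median of 0.22, or 0.14 without high-fat array 1. Lcn2, lipocalin, an iron-binding acute phase protein, read 11.98, 11.20, 7.80, 8.31 and 8.13 on high-fat arrays 1 to 5 and 8.41, 5.88, 6.74, 5.10 and 5.56 on chow arrays 1 to 5. High-fat arrays 1 and 2 were highest, and chow array 1 was above high-fat arrays 3, 4 and 5. The change, 3.15 ± 0.87, adjusted p = 0.0511, was larger than that of any called gene but Cyp2b9 and did not pass. Saa2, serum amyloid A, read 12.75, 10.14, 8.47, 8.55 and 8.45 on high-fat arrays 1 to 5 and 9.56, 6.90, 7.03, 5.68 and 7.10 on chow arrays 1 to 5. The same 3 livers, high-fat arrays 1 and 2 and chow array 1, were highest, at 2.42 ± 0.91, adjusted p = 0.21. Orm2, an orosomucoid, had 1.75 ± 0.74, adjusted p = 0.277, with SDs of 2.12 and 1.07 in the high-fat and chow groups, whereas Orm1 had 0.05 ± 0.18, adjusted p = 0.955; without high-fat array 1 the change of Orm2 was 0.99. Lcn2 passed without high-fat array 3, high-fat array 5 or chow array 1, among other settings. The list mean was 1.39, 0.80, 0.24, 0.21 and 0.17 on high-fat arrays 1 to 5 and 0.45, -0.13, 0.06, -0.27 and -0.11 on chow arrays 1 to 5. The metallothioneins Mt1 and Mt2 had 0.75 ± 0.57, adjusted p = 0.661 and 0.97 ± 0.68, adjusted p = 0.616.

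Macrophage markers had changes above 0 without passing the threshold. Of 25 macrophage and Kupffer cell markers 0 were called, 13 had an unadjusted p under 0.05, and the median was 0.49, with 24 of 25 above 0. Adgre1, the macrophage marker F4/80, read 8.12, 8.86, 8.39, 8.12 and 7.13 on high-fat arrays 1 to 5 and 6.62, 7.75, 4.80, 7.37 and 7.94 on chow arrays 1 to 5. Chow arrays 1 and 3 were low, the other chow livers lay between high-fat array 5 and the rest of the high-fat livers, and the change was 1.23 ± 0.39, adjusted p = 0.1; it was 0.70 without chow array 3. Cd5l, made by Kupffer cells, had 0.93 ± 0.29, adjusted p = 0.0883, and Clec4f, the marker most specific to them, 0.32 ± 0.17, adjusted p = 0.448. Adgre1 and Cd5l passed without chow array 5. The mean over the 25 markers, relative to their chow means, was 0.62, 0.82, 0.54, 0.32 and 0.07 on high-fat arrays 1 to 5 and -0.11, 0.31, -0.77, 0.15 and 0.42 on chow arrays 1 to 5; chow array 3 was lowest, and without it the list median was 0.32. In whole liver, more cells of a type and more RNA per cell cannot be told apart. MHC class II genes, which present antigens, had 0 of 9 called and a median of 0.61, from H2-Aa at 0.88 ± 0.31 to H2-Oa at -0.16; without chow array 3 their median was 0.37. Among 13 genes of lipid-associated macrophages Itgax, the marker CD11c, rose by 0.63 ± 0.17, adjusted p = 0.0434 and Cd63 by 1.22 ± 0.30, adjusted p = 0.0232, while Trem2 and Gpnmb had 0.05 ± 0.16 and -0.07 ± 0.09. Itgax read 5.37, 6.60, 5.41, 5.16 and 5.31 on high-fat arrays 1 to 5 and 5.01, 4.90, 5.14, 4.86 and 4.77 on chow arrays 1 to 5: high-fat array 2 stood out and the other 4 were little above the chow livers, and without array 2 the change was 0.38. Itgax lost its call in all leave-one-out fits but those without high-fat array 1, 4 or 5 (adjusted p 0.0504 to 0.211) and Cd63 without high-fat array 2 or chow array 3 or 4 (adjusted p 0.0503 to 0.14). Itgax and Cd63 did not pass in a fit of the 10 arrays alone (adjusted p 0.0754 to 0.237). Itgax and Cd63 lost the call with 16 added to each intensity.

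Of 24 inflammatory cytokines, chemokines and receptors 3 rose and 1 fell, with a median of 0.40, or 0.26 with 16 added to each intensity. Vcam1 read 8.18, 8.84, 8.13, 7.91 and 7.55 on high-fat arrays 1 to 5 and 6.64, 7.15, 5.39, 6.64 and 7.32 on chow arrays 1 to 5. High-fat livers were all above the chow livers, of which array 3 was lowest. Cx3cr1, the fractalkine receptor of monocytes, rose by 0.74 ± 0.16, adjusted p = 0.0081, without overlap, although its second probe set had 0.05. Ccl6, a chemokine of macrophages, rose by 0.83 ± 0.19, adjusted p = 0.0127. Its relative Ccl9 fell: it read 8.56, 8.57, 9.25, 8.65 and 8.48 on high-fat arrays 1 to 5 and 9.63, 9.69, 9.48, 9.96 and 9.75 on chow arrays 1 to 5, each high-fat liver below each chow liver, at -0.999 ± 0.16, adjusted p = 0.00021, and -0.79 on the second probe set. Ccl2, the chemokine that draws monocytes, had 1.27 ± 0.37, adjusted p = 0.0715, Tnf -0.04 ± 0.12, adjusted p = 0.948 and Cxcl10 0.46 ± 0.25, adjusted p = 0.471, and 0 of these 3 passed. Interferon-stimulated genes had 4 of 21 higher and 0 lower, Ifit2 (0.88 ± 0.19), Ifi27l2a (1.03 ± 0.22), Gbp2 (0.85 ± 0.22) and Gbp3 (0.58 ± 0.16). Without a call, Ifit1 had 0.70, adjusted p = 0.0784, and Isg15 and Irf7 had 0.12 ± 0.10 and 0.20 ± 0.17. Ifit1 passed in a fit of the 10 arrays alone (adjusted p 0.0413) and with the sample number as a block. Over the arrays the mean of the inflammatory list was 0.56, 0.69, 0.29, 0.14 and 0.16 on high-fat arrays 1 to 5 and -0.07, 0.13, -0.13, -0.05 and 0.12 on chow arrays 1 to 5, and that of the interferon list 0.49, 0.56, 0.29, 0.11 and 0.28 on high-fat arrays 1 to 5 and -0.21, 0.13, -0.09, 0.00 and 0.18 on chow arrays 1 to 5. The macrophage marker means above were likewise highest on high-fat arrays 1, 2 and 3, and their part in these changes was not tested; lymphocyte marker means were -0.15 to 0.07 on the high-fat arrays and -0.11 to 0.09 on the chow arrays. Ccl6 lost its call without high-fat array 2 or chow array 3 (adjusted p 0.0649 to 0.0785), Gbp2 in all leave-one-out fits but those without high-fat array 4 or 5 or chow array 4 or 5 (adjusted p 0.0541 to 0.2) and Gbp3 in all leave-one-out fits but those without high-fat array 4 or 5 or chow array 5 (adjusted p 0.0531 to 0.143). Ccl6, Ifit2, Gbp2 and Gbp3 did not pass in a fit of the 10 arrays alone (adjusted p 0.0972 to 0.144). Cx3cr1 lost the call with the mean of all probe sets of a gene, Gbp3 with 16 added to each intensity and Gbp2 with array weights.

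Genes of stellate cells, fibrosis and matrix had 0 of 30 called, 12 with an unadjusted p under 0.05, and a median of 0.32; 29 of 30 had a change above 0. Col3a1, a fibrillar collagen, read 9.45, 10.60, 9.80, 9.78 and 10.03 on high-fat arrays 1 to 5 and 8.76, 9.28, 8.46, 8.81 and 9.52 on chow arrays 1 to 5. High-fat livers were above chow livers, except that chow array 5 lay just above high-fat array 1, at 0.97 ± 0.31, adjusted p = 0.107. Col1a1 had 0.76 ± 0.32, adjusted p = 0.268, Timp1, an inhibitor of matrix proteases, 0.60 ± 0.28, adjusted p = 0.366 and Acta2, the marker of activated stellate cells, -0.03 ± 0.09, adjusted p = 0.937. The list mean was 0.05, 0.80, 0.28, 0.27 and 0.36 on high-fat arrays 1 to 5 and -0.01, 0.16, -0.29, -0.07 and 0.20 on chow arrays 1 to 5, with high-fat array 2 highest. Of 22 endothelial markers Lyve1, of sinusoidal and lymphatic endothelium, rose by 0.58 ± 0.16, adjusted p = 0.047, and Pecam1, Kdr and Stab2 had 0.33 ± 0.17, -0.08 ± 0.15 and 0.20 ± 0.11. Cell cycle genes had 1 of 21 higher, Cdc20, an activator of the anaphase ubiquitin ligase, at 0.58 ± 0.16, adjusted p = 0.0435, with high-fat array 2 at 6.95 and the others between 5.55 and 5.93 and a change of 0.34 without that array; Top2a had -0.22 ± 0.10. Lyve1 lost its call in all leave-one-out fits but those without high-fat array 1 or 3 or chow array 2 (adjusted p 0.0619 to 0.173) and Cdc20 without high-fat array 2 or 3 or chow array 1, 3 or 4 (adjusted p 0.064 to 0.205). Lyve1 and Cdc20 did not pass in a fit of the 10 arrays alone (adjusted p 0.119 to 0.269). Lyve1 and Cdc20 lost the call with 16 added to each intensity.

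**Figure D3:**
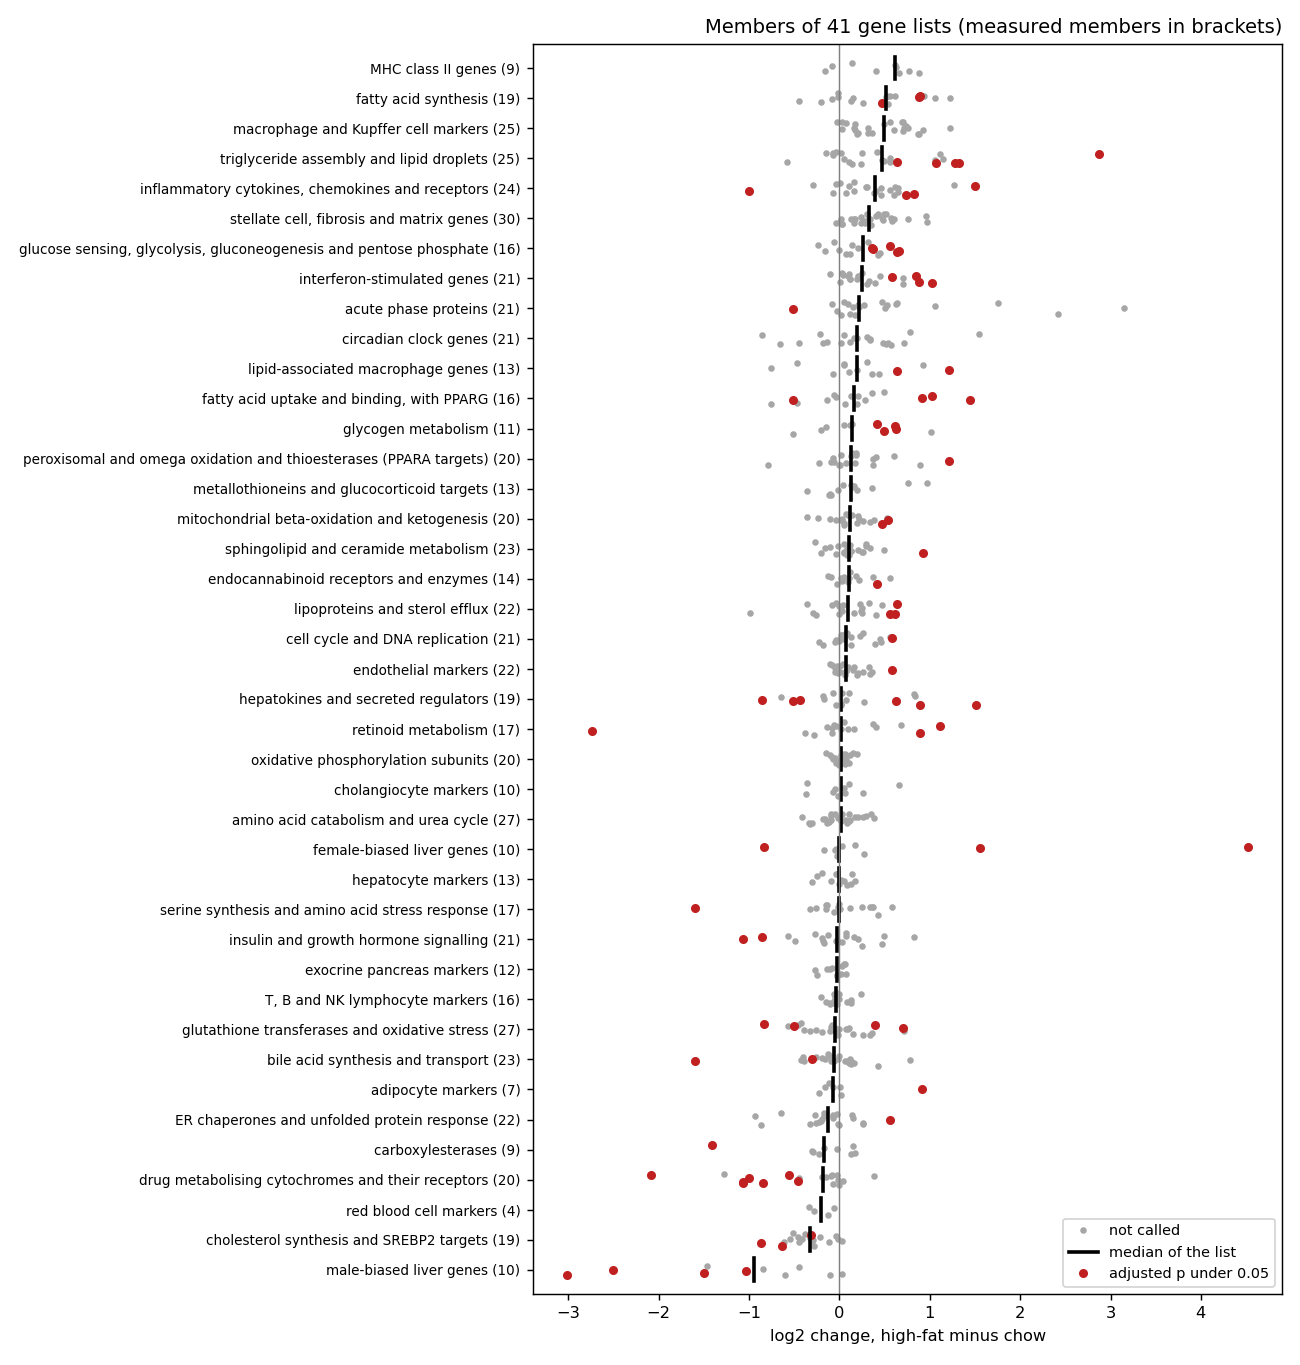
Log2 change, high-fat minus chow, of every measured member of 41 gene lists, ordered by the list's median (black tick); red points passed the threshold and grey points did not, and the number of measured members stands in brackets. MHC class II genes have the highest median, 0.61, without a red point, and male-biased liver genes the lowest, -0.94, with 4.

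Clock genes had 0 of 21 called and 5 with an unadjusted p under 0.05. Dbp, a clock output gene with a steep daily rhythm, read 9.07, 6.69, 9.96, 9.66 and 10.37 on high-fat arrays 1 to 5 and 7.03, 5.33, 8.36, 7.04 and 10.28 on chow arrays 1 to 5. The livers of both groups were spread over several log2 units and overlapped, at 1.54 ± 0.80, adjusted p = 0.45; Arntl had -0.86 ± 0.45, adjusted p = 0.454, Per2 0.48 ± 0.33, adjusted p = 0.611 and Nr1d1 0.16 ± 0.23, adjusted p = 0.856. The change of Dbp was 0.97 without chow array 2. Of 23 sphingolipid genes 1 rose, the ceramide synthase Cers6, by 0.92 ± 0.24, adjusted p = 0.0302, its second probe set having -0.01, while Sptlc1 and Sptlc2, which start the pathway, had 0.21 ± 0.10 and 0.25 ± 0.10. Endocannabinoid genes had 1 of 14 higher and 0 lower: Daglb, a lipase that makes the ligand 2-arachidonoylglycerol, rose by 0.42 ± 0.10, adjusted p = 0.0244. Cnr1 read 5.51, 5.92, 5.94, 5.99 and 5.90 on high-fat arrays 1 to 5 and 5.98, 5.99, 6.03, 6.09 and 5.66 on chow arrays 1 to 5. The groups overlapped, at -0.10 ± 0.11, adjusted p = 0.797. Faah and Mgll, which degrade endocannabinoids, had 0.11 ± 0.11, adjusted p = 0.777 and 0.55 ± 0.19, adjusted p = 0.13. Cers6 lost its call without high-fat array 2 or 3 or chow array 1, 3 or 4 (adjusted p 0.0532 to 0.134) and Daglb without high-fat array 1 or 5 or chow array 1 or 3 (adjusted p 0.0559 to 0.1). Daglb did not pass in a fit of the 10 arrays alone (adjusted p 0.157). Cers6 lost the call with the mean of all probe sets of a gene.

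The 5 high-fat livers differed among themselves. Over the 323 called genes, the mean shift from the chow mean in the direction of the call was 0.70 on array 1, 1.00 on array 2, 0.64 on array 3, 0.77 on array 4 and 0.77 on array 5. Array 2 lay farthest from chow in 156 of the 323 genes, and array 3 nearest in 102 and array 1 in 92. The groups of genes did not go together: array 1 had the lowest fatty acid synthesis mean and the highest acute phase mean, array 3 the highest fatty acid synthesis mean and the lowest droplet mean, and array 2 the highest macrophage and matrix means. High-fat array 3 kept Hsd3b5 at 11.24, Cidea at 4.87 and Mogat1 at 5.34, near the chow livers, while its Cyp26a1 (7.70), Csad (10.26) and Fabp2 (11.41) lay beyond every chow liver. Of the 93 named genes that were called, 46 were called in each of the 10 fits that left out 1 of the 10 arrays, among them Cyp2b9, Cidea, Rgs16, Fgf21, Cyp26a1, Ces2a, Csad, Fabp2 and Cyp1a2.

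**Figure D4:**
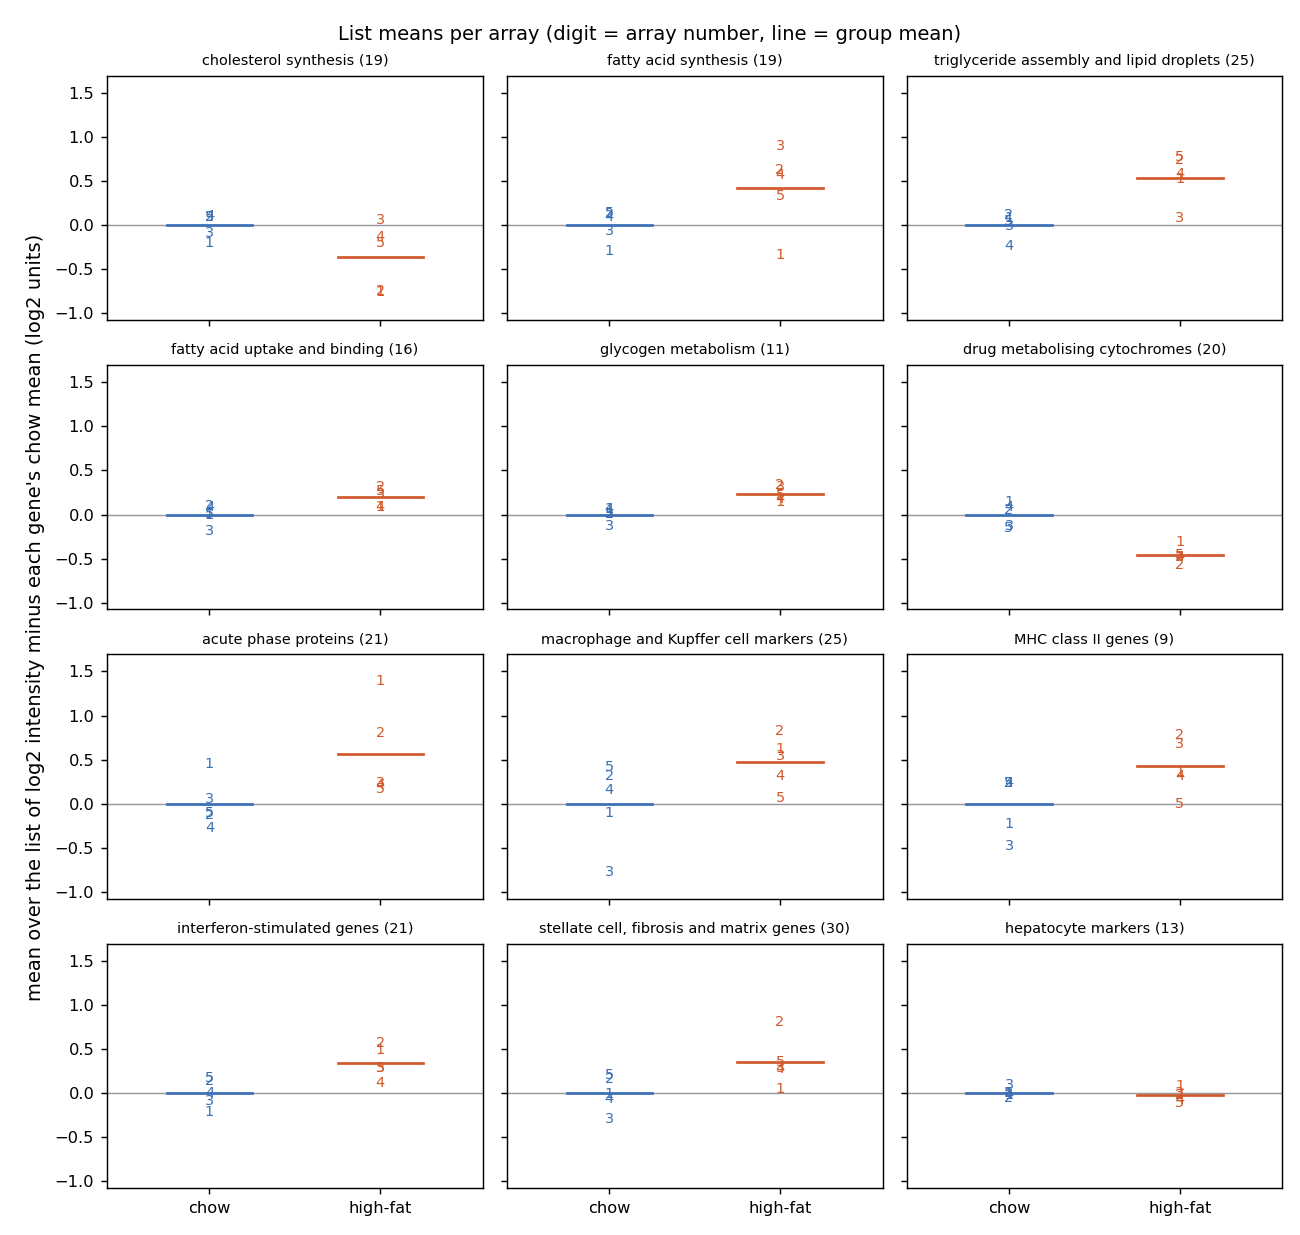
Mean over the measured members of 12 gene lists of log2 intensity minus each gene's chow mean, per array; digits are array numbers (blue chow, orange high-fat) and lines the group means. High-fat array 1 is lowest for fatty acid synthesis and highest for acute phase proteins, and chow array 3 is lowest for macrophage markers.

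The same diet contrast was available in other livers of the series, each with its own chow group. Among the 323 genes, 289 (89.5%) had the same sign in AM251-treated wild-type livers (5 against 5 arrays), where 57.0% of all genes had the same sign, and 77 were also called in the same direction; 1.96% of all genes were called there. In AM251-treated knockout livers (5 against 5) 243 (75.2%) had the same sign, against 58.2% of all genes, and 35 were called in the same direction, with 2.64% of all genes called. In knockout vehicle livers (4 high-fat against 5 chow) 244 (75.5%) had the same sign, against 59.2% of all genes, and 80 were called in the same direction, with 3252 of the 19147 genes called. Chow knockout vehicle arrays 15 and 17 stood apart, with mean correlations to the other liver arrays of 0.983 and 0.974. Without them 260 of the 323 (80.5%) had the same sign, against 59.3% of all genes, and 50 were called in the same direction. In that fit 1428 of the 19147 genes were called. The 323 genes were chosen by their change in wild-type vehicle livers, so smaller changes elsewhere are to be read with that choice in mind. These 2 arrays also enter the estimate of each gene's spread in the fit, and the wild-type vehicle comparison itself called 500 genes without them, all 323 included.

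In 17 genes the change was called in the same direction in all 4 diet comparisons. They were Rgs16, Stap1, Rdh9, Fabp2, Gys2, Adgrv1, a large adhesion receptor, and Gpd2, mitochondrial glycerol phosphate dehydrogenase, which rose, and Cyp26a1, Csad, Ces2a, Cyp3a59, Cyp3a44, Gsta4, Gstm4, the citrate transporter family gene Slc13a2, the sulfur dioxygenase Ethe1 and Alkbh7, which fell; Adgrv1, Gpd2, Slc13a2, Ethe1 and Alkbh7 were named after their values were seen. When chow knockout arrays 15 and 17 were left out, 14 of these genes were still called in knockout vehicle livers. The other 3 were Gpd2, Slc13a2 and Stap1. The low readings of Cyp3a44 are given above. Gys2 lost its call in all leave-one-out fits but those without high-fat array 1 or 2 or chow array 3 or 5 (adjusted p 0.0505 to 0.0702), Gsta4 without high-fat array 5 (adjusted p 0.0568) and Gstm4 without high-fat array 1 (adjusted p 0.057). Rgs16 changed by 2.86 ± 0.54 in wild-type vehicle livers, 2.82 ± 0.54 in wild-type AM251, 2.53 ± 0.58 in knockout vehicle and 2.75 ± 0.54 in knockout AM251 livers. Cyp26a1 changed by -2.74 ± 0.46, -3.77 ± 0.46, -3.25 ± 0.49 and -3.07 ± 0.46 in the same order. For Fabp2 these values were 1.03 ± 0.14, 1.02 ± 0.14, 0.82 ± 0.15 and 1.07 ± 0.14.

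The difference between the diet effects of wild-type and knockout vehicle livers was tested directly. It was called for 799 genes (4.17%), 255 with a more positive effect in wild-type livers and 544 with a more negative one, and for 198 (1.03%), 52 and 146, without chow knockout arrays 15 and 17. With quantile normalization the split of the first count was 415 and 433. Single livers moved it too: it was 476, 466 and 510 without high-fat knockout array 40, 42 or 44, 514 and 478 without high-fat wild-type array 2 or 4, and 499 without chow knockout array 17, and its more positive side was 432 without chow knockout array 18. Among the 323 genes changed by diet in wild-type vehicle livers 69 differed between genotypes, 21 without arrays 15 and 17, and 20 in both. Cyp2b9, at 4.53 ± 0.70 in wild-type, had -0.04 ± 0.74 in knockout vehicle livers, a difference of 4.57 ± 1.02, adjusted p = 0.00889, and of 4.51 ± 1.12, adjusted p = 0.0407 without the 2 arrays. Cidea had -0.20 ± 0.52 in knockouts, a difference of 3.07 ± 0.71, adjusted p = 0.0113, but 2.83 ± 0.78, adjusted p = 0.0603 without the 2 arrays. Hsd3b5 had 0.77 ± 0.67 in knockouts, a difference of -3.79 ± 0.92, adjusted p = 0.0144, and -3.51 ± 0.98, adjusted p = 0.0653 without them. Cyp7b1 had 0.66 ± 0.29 in knockouts, a difference of -2.16 ± 0.40, adjusted p = 0.00191, and -1.87 ± 0.42, adjusted p = 0.0215 without them. Lifr (-1.73 ± 0.38, adjusted p = 0.0167), Ifi27l2b (2.12 ± 0.45, adjusted p = 0.0149), Anxa2 (1.69 ± 0.41, adjusted p = 0.0348), Slco2a1 (-1.02 ± 0.22, adjusted p = 0.0161), Keg1 (-1.24 ± 0.31, adjusted p = 0.0445), Mogat1 (2.05 ± 0.51, adjusted p = 0.0411), Gpat3 (1.60 ± 0.41, adjusted p = 0.0435) and Pparg (1.07 ± 0.26, adjusted p = 0.0359) also differed with and without the 2 arrays; the values are those without them. The calls of Mogat1 and Gpat3 for diet in wild-type livers depended on single arrays, as given above.

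Among the genes with the largest genotype differences, Lcn2 (5.25 ± 1.27, adjusted p = 0.014), Saa2 (4.91 ± 1.33, adjusted p = 0.0283) and Orm2 (4.34 ± 1.07, adjusted p = 0.0158) were acute phase genes, Mt1 (3.04 ± 0.84, adjusted p = 0.0306) a metallothionein and Slco1a1 (-3.46 ± 0.76, adjusted p = 0.00783) a male-biased transporter. Without arrays 15 and 17 these values were 4.33 ± 1.16, adjusted p = 0.0551, 4.19 ± 1.30, adjusted p = 0.0988, 3.37 ± 1.03, adjusted p = 0.0924, 2.52 ± 0.83, adjusted p = 0.121 and -2.83 ± 0.78, adjusted p = 0.0603, so that each of the 5 calls was lost. Leaving out single arrays, the difference of Saa2 lost its call without high-fat knockout array 40 or 42, high-fat array 1 or 2, chow knockout array 15 or chow array 4 (4.01 to 4.88), and that of Mt1 without high-fat knockout array 40 or 42, high-fat array 2, chow knockout array 15 or chow array 5 (2.49 to 3.10). Mfsd2a, Vcam1, Fgf21 and Cyp7a1, with 0.18 ± 0.46, 0.72 ± 0.32, 0.91 ± 0.31 and -0.87 ± 0.42 in knockout vehicle livers, were not called for the difference, which does not show that the genotypes respond alike. The CB1 gene Cnr1 itself had -0.07 ± 0.11 in knockout vehicle livers, and 0.11 ± 0.11 in wild-type AM251 livers. The probe sets' place relative to the deleted part of Cnr1 is not known here, so these levels do not check the genotype.

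**Figure D5:**
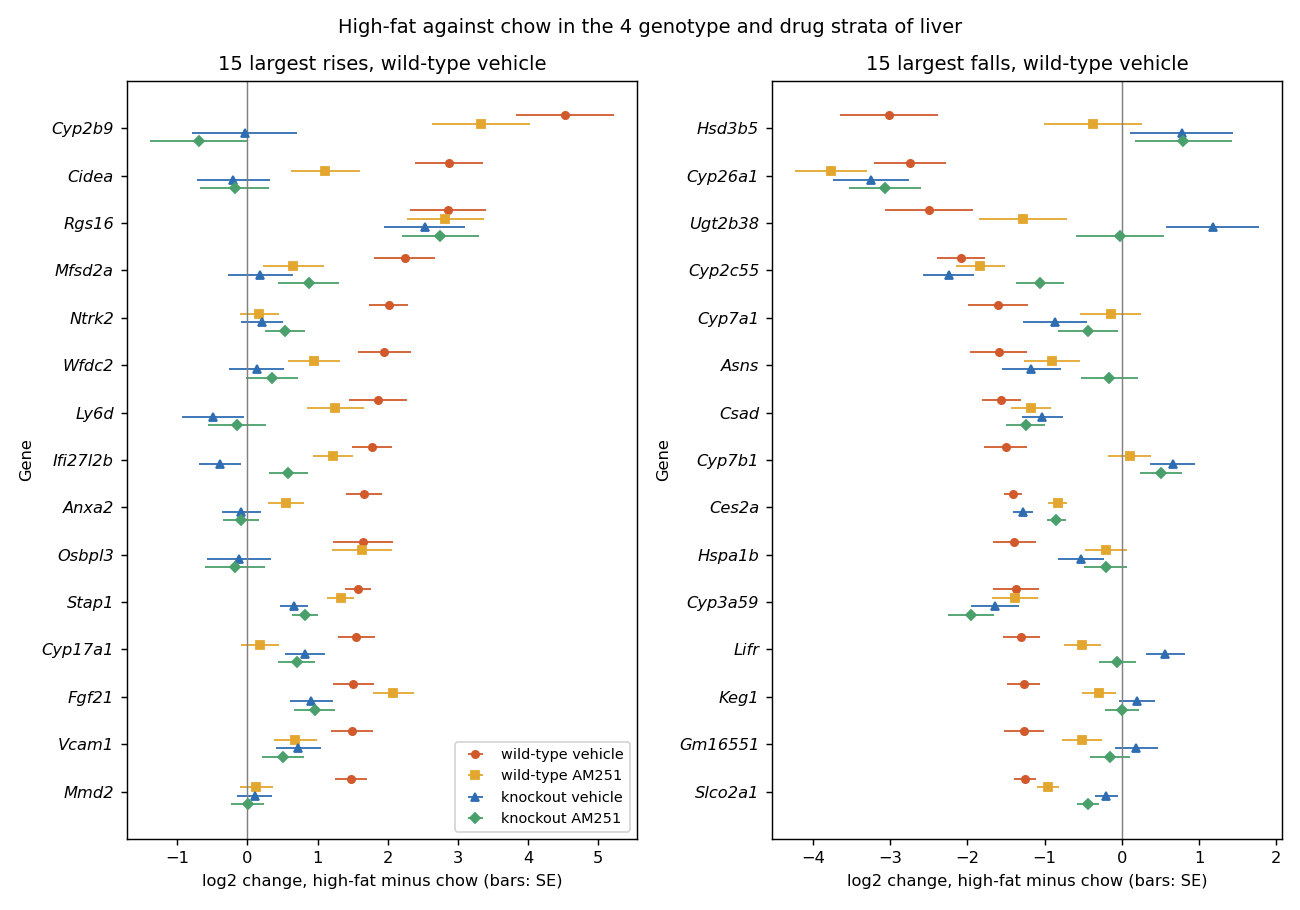
Log2 change, high-fat minus chow, with its SE, of the 15 largest rises (left) and 15 largest falls (right) of wild-type vehicle liver, in each of the 4 genotype and drug strata. Rgs16 and Cyp26a1 keep their direction in all 4, whereas Cyp2b9 is at 4.53 in wild-type vehicle and at -0.04 in knockout vehicle livers.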

How the data were processed

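Liver RNA of single mice was hybridised as biotin-labelled cRNA to custom one-colour arrays, 5 arrays in each group compared. The deposited values are linear intensities per probe set, processed by the authors with RMA per the submitters' processing notes, version not given in the sources used here. Descriptions in the labels name virtual pools, but the columns hold intensities of single arrays, not ratios. Of 38385 probe sets 24478 had 1 gene symbol in the platform annotation, 65 had several and 13842 had none; those with several or none were not used. The log2 of the intensity was taken, with no further scaling, and the probe set with the highest mean in liver stood for each of 19147 genes. limma 3.58.1 (R 4.3.3) was fitted with 1 mean for each of 8 liver groups (39 arrays) and Benjamini-Hochberg adjustment over all genes, with a threshold of 0.05. Alternatives were a fit of the 10 arrays alone, other probe set rules, quantile normalization, an added constant of 16, a filter on dim genes, array weights, an intensity trend, the sample number as a block, and leaving out each array. A rule picked the genes to be named: the 15 largest called rises and falls whose 5 high-fat values lay on 1 side of the chow mean, the 8 largest genotype differences each way, from each of 41 lists (729 entries measured) the first 4 genes and up to 6 called members, and Cnr1. Of the uncalled genes this rule picked, only some are described in the text. Outside this rule, Plin1, Lpin1, Gpam, G0s2, Mlxipl, Cyp51, H2-Oa, Sult2a1 and A1bg were named after their values were seen. The members and lists were chosen with earlier results of these data known. The script was tested on simulated data. Columns of other tissues were not used.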

Additional observations from a re-analysis of the deposited data

Results flagged for a closer look

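In 30 of 416 groups of 5 arrays of the named genes, the highest or lowest liver lay far from the rest by Dixon's criterion, which chance meets in about 1 of 20 groups. High-fat array 2 was such a high liver in 6 genes, at 9.22 for Ly6d, 8.93 for Mmd2, 8.27 for Fabp4, 6.60 for Itgax, 5.59 for Trem2 and 6.95 for Cdc20, and a low one in Susd4 (6.70) and Mia2 (7.47). High-fat array 3 stood apart in Plin4 (5.98), Mogat1 (5.34), Apob (12.24), Ccl9 (9.25) and Kdr (8.83), high-fat array 1 in Scd1 (13.66), Khk (12.08) and Cnr1 (5.51), and high-fat array 5 in Cpt1a (12.57) and Ces1d (12.31). On chow, array 3 stood apart in Hspa1b (10.19), Gckr (11.11), Gbe1 (10.995), Krt19 (4.67), Sdha (11.85) and Slc10a5 (7.28), array 4 in Ntrk2 (4.35), Cidec (5.35) and G6pc (12.04), array 1 in Isg15 (4.79) and Daglb (6.25), and array 5 in Cnr1 (5.66).

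The diet effect differed between wild-type and knockout vehicle livers, by limma's test of the difference, in 39 of the 208 named genes. Over all 19147 genes the share called for this difference was 4.17%. The naming rule itself picked the largest genotype differences each way, so part of the 39 follows from that choice. The more positive effects in wild-type livers were those of Lcn2 (5.25), Saa2 (4.91), Cyp2b9 (4.57), Orm2 (4.34), Cidea (3.07), Mt1 (3.04), Ly6d (2.36), Mogat1 (2.20), Cyp4a14 (2.18), Ifi27l2b (2.16), Wfdc2 (1.82), Ntrk2 (1.80), Gpat3 (1.80), Anxa2 (1.75), Mmd2 (1.37), Nqo1 (1.25), Pparg (1.15), Srxn1 (1.05), Ccl6 (0.94), Stap1 (0.91), Atf3 (0.84) and Gyg (0.57). The more negative ones were those of Hsd3b5 (-3.79), Ugt2b38 (-3.68), Slco1a1 (-3.46), Cyp7b1 (-2.16), Lifr (-1.86), Mia2 (-1.77), Slc10a5 (-1.76), 4833411C07Rik (-1.72), Keg1 (-1.47), Gm16551 (-1.46), Idi1 (-1.22), Slco2a1 (-1.05), Egfr (-0.84), Abcb11 (-0.81), Cyp2f2 (-0.48), Otc (-0.47) and Cyp27a1 (-0.39). Of these 39, 11 were also called without chow knockout arrays 15 and 17, namely Cyp2b9, Mogat1, Ifi27l2b, Gpat3, Anxa2, Pparg, Cyp7b1, Lifr, Slc10a5, Keg1 and Slco2a1. With 1 array left out at a time, the difference of Mia2 lost its call in 15 of 19 fits, at -1.85 to -1.20, and that of 4833411C07Rik in 9, without chow array 2 or 5, high-fat array 1, 2 or 4, chow knockout array 15 or 17 or high-fat knockout array 42 or 44, at -1.71 to -1.51.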

How the results depend on the processing

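No named gene called for diet changed sign, while 23 of those not called did under some setting. Of 93 named genes called for diet, 35 were called under all 9 other settings and each of the 10 fits without 1 array, 46 in each of those 10 fits and 52 with the 10 arrays alone; of 115 not called, 18 were called under some setting. Against 323 genes (212 higher, 111 lower), the 10 arrays alone gave 163 (112 and 51). Without chow knockout arrays 15 and 17, chosen after seeing the data, there were 500 (323 and 177). Leaving out 1 array gave 160 to 375 genes, 98 to 273 higher and 61 to 134 lower. The genotype difference, called for 799 genes (255 and 544), gave 161 (40 and 121) with only those groups, 848 (415 and 433) after quantile normalization, 536 (138 and 398) with array weights, 198 (52 and 146) without arrays 15 and 17, and 466 to 1195 (124 to 432 and 334 to 763) leaving out 1 array. No scaling moved the median of all genes by more than 0.1. Array numbers 1 to 5 recur in both groups, and the labels do not say whether same-numbered livers belong together. The deviations of same-numbered livers had correlations of 0.00, 0.22, -0.17, 0.05 and 0.10, which does not settle whether they are pairs. With the number as a block the 10 arrays gave 235 genes (171 and 64), against 163 without it. Of the 235, 166 were among the 323. Calls lost with this block are not listed gene by gene above. Cyp2c70, Apoc2 and Fetub, which kept their calls under every other setting, lost them with it. The 5 arrays a group and the brightness of a probe set over background limit what small changes in dim genes can be seen.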
